A study of Mus musculus with 6 samples.

Results

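The Bcl2 family decides at the mitochondrion whether a cell lives or dies. It was followed here through 10 genes, Bcl2, Bcl2l1, Mcl1, Bax, Bak1, Bcl2l11, Bid, Bad, Bbc3 and Pmaip1, chosen by name from the 28914 genes of the deposited table after matching Ensembl identifiers to symbols. All 10 passed the filter on low values and were among the 18217 genes tested. Total CD4 T cells were sorted from spleen and their RNA sequenced; the donors were NOD mice aged 12 weeks, a strain that becomes diabetic through autoimmunity. The cells were at steady state and their receptor was not stimulated further. Cells overexpressing Blimp-1 form the group BTg, cells labelled as Blimp1 knockout form CKO, and control cells labelled WT are what both were set against, with 2 libraries in each of the 3 groups. Blimp-1, encoded by Prdm1, is a transcriptional repressor of lymphocytes, and the comparisons ask which transcripts differ when it is raised or lost. The sources used here give neither the promoter of the overexpressed gene nor the way in which CKO was made. They also do not tell whether paired libraries of a group stem from different mice, so a p-value measures spread between libraries that may be technical.

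Prosurvival members (Bcl2, Bcl2l1, which encodes BCL-XL, and Mcl1) hold the effectors Bax and Bak1 in check. Once freed, the effectors make pores in the outer mitochondrial membrane, cytochrome c leaves, and the apoptosome switches on caspases. BH3-only proteins are the sensors that upset this balance: Bcl2l11 (BIM), Bid, Bad, Bbc3 (PUMA) and Pmaip1 (NOXA). In T cells interleukin-7 keeps BCL2 up, BIM opposes it in resting cells and at the end of a response, MCL1 is a short-lived protein that T cells need throughout life, and NOXA binds chiefly MCL1.

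The family is joined by the BH3 motif, the helix through which BH3-only proteins occupy a groove on prosurvival proteins. The coding stretches below, each 36 bases read 5′ to 3′ from GENCODE M21 transcripts, show for 9 of the genes what the 3 roles have in common. Capitals mark the codon of its conserved leucine and the pair of codons for a small residue followed by aspartate.
Bcl2: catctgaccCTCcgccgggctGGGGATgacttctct
Bcl2l1: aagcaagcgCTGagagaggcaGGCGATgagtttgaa
Mcl1: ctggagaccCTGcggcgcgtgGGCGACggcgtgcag
Bax: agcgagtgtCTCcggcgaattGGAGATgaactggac
Bak1: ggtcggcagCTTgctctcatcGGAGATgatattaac
Bcl2l11: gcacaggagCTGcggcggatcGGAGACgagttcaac
Bid: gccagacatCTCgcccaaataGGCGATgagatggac
Bad: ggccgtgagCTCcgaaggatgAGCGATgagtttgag
Bbc3: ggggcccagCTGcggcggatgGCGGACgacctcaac
In Bcl2 the stretch codes for residues 91 to 102 of 236, and in Bcl2l11 for residues 147 to 158 of 196. By the choice of capitals every stretch shown ends them with an aspartate codon, GAT or GAC. No stretch is given for Pmaip1. The small residue before it is glycine in Bcl2, Bcl2l1, Mcl1, Bax, Bak1, Bcl2l11 and Bid, serine in Bad and alanine in Bbc3.

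The windows of 250 bases before the RefSeq starts of the genes were searched on both strands for letters of factors known in T cells. For 9 of the genes, all but Pmaip1, 15 windows were at hand, credited to RefSeq (GRCm38.p6). GAAAGT, the core of the Blimp-1 motif, was in 0 of the 15 windows, and in 12.3% of 32841 promoters of that length. The longer form AGNGAAAG, which can share letters with it, was likewise in 0 windows, against 7.3% of all promoters. GTAAACA, the letters FOXO factors bind, was in 3.17% of all promoters and in 2 of the windows, those of Bcl2l11 and Bbc3, both known in other cells as FOXO3 targets. These windows are printed 5′ to 3′ on the strand of the gene, with the match in capitals. They are shown because they hold the only matches, and in Bbc3 the match lies on the other strand.
Bcl2l11 chr2:128125788-128126037 (+): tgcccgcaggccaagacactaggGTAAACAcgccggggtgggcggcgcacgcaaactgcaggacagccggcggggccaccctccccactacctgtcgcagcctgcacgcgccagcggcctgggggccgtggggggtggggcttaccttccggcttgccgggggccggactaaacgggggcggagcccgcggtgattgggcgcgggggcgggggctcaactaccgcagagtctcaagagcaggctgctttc
Bbc3 chr7:16310011-16310260 (+): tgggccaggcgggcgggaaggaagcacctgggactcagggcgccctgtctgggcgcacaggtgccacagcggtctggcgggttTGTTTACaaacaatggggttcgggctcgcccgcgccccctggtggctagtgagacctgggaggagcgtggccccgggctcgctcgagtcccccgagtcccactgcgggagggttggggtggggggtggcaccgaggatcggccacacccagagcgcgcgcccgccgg
A match of letters describes the window and says nothing of binding in these cells.

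Prdm1 was read first as a check of the labels. It stood at 19.6 and 30.1 FPKM (fragments scaled to gene length and library size) in BTg, 0.849 and 0.669 FPKM in CKO and 0.458 and 0.628 FPKM in WT. Both BTg libraries were far above the others, while the libraries labelled CKO were not below WT. Whether the CKO reads come from a shortened transcript cannot be read from a value per gene. Libraries held 14958458 to 17799091 reads on genes. Markers of other cells set CKO replicate 1 apart. Neutrophil markers, 11 in number, held 1.34% of the reads there, 0.0396% in CKO replicate 2 and 0.00781 to 0.0325% in the 4 BTg and WT libraries. The 7 plasma cell markers took 0.578%, the 10 monocyte and macrophage markers 0.122% and the 10 T cell markers only 0.285%, the last against 0.411 to 0.571% elsewhere. S100a8, the top neutrophil marker, was at 3612 FPKM there and at 43.8 FPKM in CKO replicate 2. None of the T cell markers was at 0 in any library, and the CD8 markers took at most 0.00121% of reads. Erythroid markers, 10 in number, took 0.0371 and 0.0534% of reads in BTg, 0.121 and 0.154% in CKO and 0.0374 and 0.233% in WT, highest in WT replicate 2. Of the neutrophil markers 2 were at 0 in BTg replicate 1 and none in the CKO and WT libraries. Bulk RNA cannot tell fewer cells of a type from less RNA per cell, and the part of these other cells in the member values was not tested. Member differences that involve CKO are therefore also given without CKO replicate 1. In that fit the median of all tested genes lay at 0.16 for CKO against WT and -0.11 for BTg against CKO, against which its values are to be read.

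Mcl1 was by far the most abundant member. The deposited FPKM divide by the genomic span of a gene, introns included, so levels of different genes are set side by side here only as FPKM per merged exon length. On that scale the means over the 6 libraries were 171 for Mcl1, 55.3 for Bax, 23.7 for Bak1, 20.8 for Bcl2, 11.6 for Bbc3, 8.57 for Bcl2l11, 8.46 for Bid, 7.56 for Bad, 5.46 for Bcl2l1 and 4.86 for Pmaip1. Mcl1 stood above Bax, and Bax above Bak1, with no overlap between any libraries. Every later pair of neighbours in this order had overlapping ranges, although Bcl2 exceeded Bbc3, and Bad exceeded Bcl2l1, within each of the 6 libraries. The deposited length turns one contrast round. Bcl2 has a span of 89469 bases and 9157 bases of exon, while Bcl2l1 has a listed span of 1954 bases and 4586 of exon. Deposited FPKM therefore put Bcl2l1 above Bcl2 in every library, and FPKM per exon length puts Bcl2 above Bcl2l1 in every library.

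No member passed the test in any of the 3 comparisons (limma on log2(FPKM + 0.1), Benjamini-Hochberg adjusted p under 0.05 over 18217 genes). Nor did any other gene, so the background called at that threshold was 0% in each. Limma voom on the recovered reads called 0 genes for CKO against WT, 4 for BTg against WT and 7 for BTg against CKO, with no member among them. Differences below are therefore given as values in log2 units with their standard errors (SE). The 3 comparisons share libraries and are not independent of each other. An unadjusted p under 0.05 was reached by 855 genes (4.69%) for CKO against WT, 481 (2.64%) for BTg against WT and 1678 (9.21%) for BTg against CKO. Among the 10 members the counts were 1, 0 and 2, in that order of comparisons. These were Pmaip1 for CKO against WT, and Bid and Pmaip1 for BTg against CKO.

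**Figure D1:**
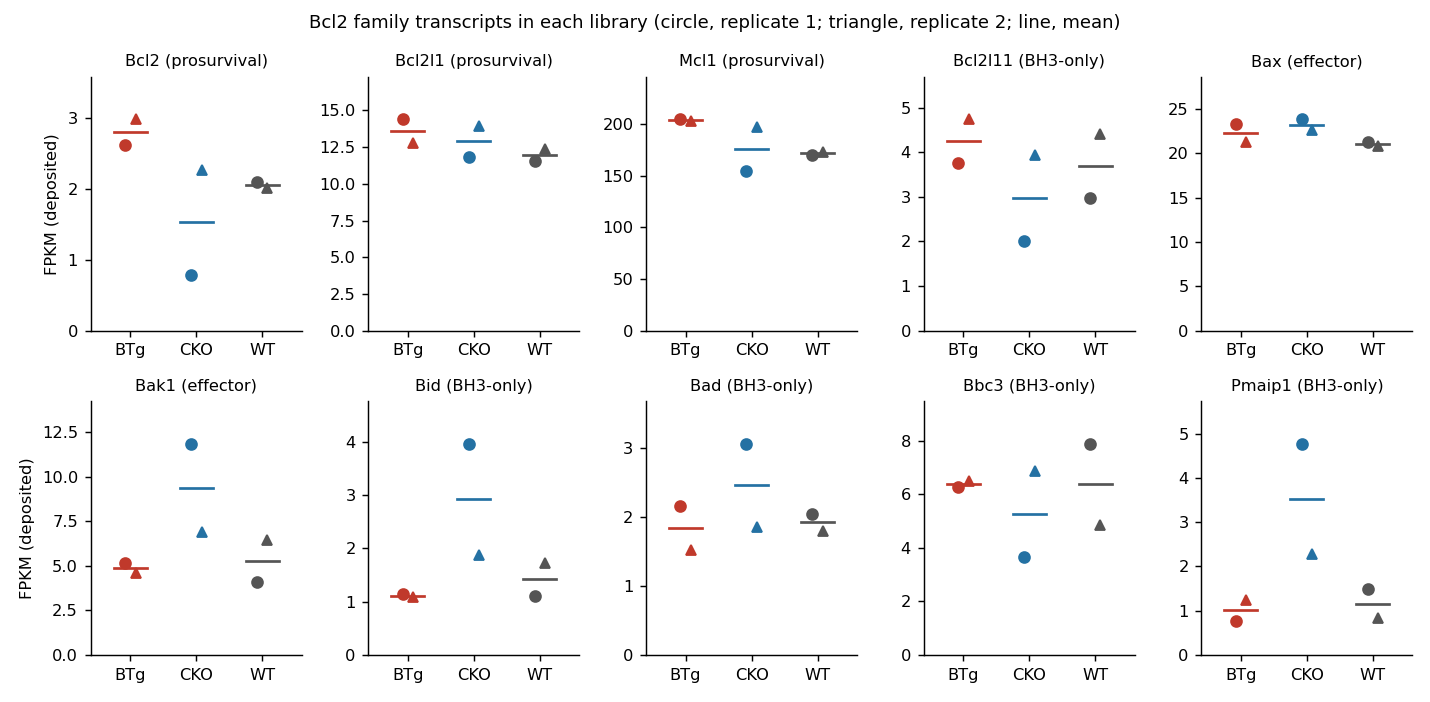
Deposited FPKM (vertical axes, linear, each from 0) of the 10 genes in BTg, CKO and WT, with a circle for replicate 1, a triangle for replicate 2 and a line at the group mean. Bcl2 and Mcl1 are highest in the BTg libraries, while Bak1, Bid and Pmaip1 are highest in the CKO libraries, above all in CKO replicate 1.

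Among the prosurvival genes, all 3 were higher in both BTg libraries than in both WT libraries. That is 3 of the 10 members with BTg wholly above WT, all of them prosurvival, where 14.5% of all tested genes were so placed. No member was wholly below WT, against 12% of genes. This does not extend to the 4 other prosurvival relatives tested, given below. All 4 were lower in BTg than in WT, 2 of them wholly. The differences of the 3 members were small. Bcl2 (ENSMUSG00000057329, GRCm38 chr1:106538178-106714274, minus strand) stood at 2.62 and 2.98 FPKM in BTg, 0.79 and 2.27 FPKM in CKO and 2.1 and 2.02 FPKM in WT. BTg was highest and did not overlap either other group, while CKO replicate 1 lay far below every other library and CKO replicate 2 just above WT. The ratio of group means was 1.36 for BTg over WT, a log2 difference of 0.43 (SE 0.50, limma adjusted p = 1). For BTg against CKO the log2 difference of Bcl2 was 1.0 (SE 0.50, limma adjusted p = 0.608), and 0.29 without CKO replicate 1. For CKO against WT it was -0.57 (SE 0.50, limma adjusted p = 1), and 0.13 without CKO replicate 1, so its direction rests on that library.

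Bcl2l1 (ENSMUSG00000007659, chr2:152780668-152831728, minus strand) had 14.4 and 12.8 FPKM in BTg, 11.8 and 14.0 FPKM in CKO and 11.6 and 12.3 FPKM in WT. The BTg libraries lay just above WT, and CKO overlapped both. Its log2 difference was 0.18 for BTg against WT, 0.08 for BTg against CKO and 0.10 for CKO against WT (SE 0.21 each). Across all libraries Bcl2l1 spanned a factor of only 1.24. Mcl1 (ENSMUSG00000038612, chr3:95658788-95663176, plus strand) had 205 and 203 FPKM in BTg, 154 and 198 FPKM in CKO and 171 and 174 FPKM in WT. BTg was above every CKO and WT library, and the WT libraries lay between those of CKO. Its BTg mean of 204 ± 1.17 FPKM was 1.18 times the WT mean of 172 ± 2.07 FPKM (SD, n = 2 each), and the log2 difference was 0.24 (SE 0.28, limma adjusted p = 1). For CKO against WT the Mcl1 difference was 0.02 (SE 0.28), and for BTg against CKO 0.22 (SE 0.28), and 0.04 without CKO replicate 1.

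Leaving out each library in turn gave BTg to WT differences of 0.33 to 0.52 for Bcl2, 0.09 to 0.27 for Bcl2l1 and 0.23 to 0.26 for Mcl1, whose sign cannot turn where groups do not overlap. Scaled to the T cell markers, which were themselves higher in BTg than in WT in 9 of 10 genes, the same differences were 0.25 for Bcl2, 0.00 for Bcl2l1 and 0.07 for Mcl1.

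The effectors differed in how much they varied. Bax (ENSMUSG00000003873, chr7:45461697-45466898, minus strand) was the steadiest of the 10 genes, within a factor of 1.14 over all libraries. It had 23.3 and 21.3 FPKM in BTg, 23.8 and 22.6 FPKM in CKO and 21.3 and 20.8 FPKM in WT. Both CKO libraries were above WT by a small margin, and BTg overlapped CKO and WT. The log2 difference of Bax was 0.14 for CKO against WT, 0.08 for BTg against WT and -0.06 for BTg against CKO (SE 0.20 each).

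Bak1 (ENSMUSG00000057789, chr17:27019810-27029009, minus strand) had 5.15 and 4.60 FPKM in BTg, 11.8 and 6.91 FPKM in CKO and 4.08 and 6.43 FPKM in WT. CKO was above both other groups without overlap, and BTg lay within the range of WT. The CKO mean was 1.79 times the WT mean, with a log2 difference of 0.81 (SE 0.37, limma adjusted p = 1), and 0.43 without CKO replicate 1. For BTg against CKO the difference was -0.88 (SE 0.37, limma adjusted p = 0.558), and -0.50 without that library. BTg against WT gave -0.07 (SE 0.37).

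Of the BH3-only genes, Pmaip1 and Bid stood highest in CKO, and Bcl2l11, Bad and Bbc3 overlapped between all groups. Pmaip1 (ENSMUSG00000024521, chr18:66458533-66465565, plus strand) had the widest range of any member, a factor of 6.21. Its values were 0.769 and 1.24 FPKM in BTg, 4.77 and 2.28 FPKM in CKO and 1.49 and 0.834 FPKM in WT. These came from 82 and 130 reads in BTg, 594 and 283 in CKO and 185 and 89 in WT. Both CKO libraries were above all others, replicate 1 the higher, and BTg and WT overlapped. The CKO mean was 3.04 times the WT mean, a log2 difference of 1.48 (SE 0.51, unadjusted p = 0.0311, limma adjusted p = 1). Without CKO replicate 1 it was 0.97, the largest CKO to WT difference of the members in that fit (unadjusted p = 0.125, limma adjusted p = 0.989). For BTg against CKO the Pmaip1 difference was -1.66 (SE 0.51, unadjusted p = 0.0209, limma adjusted p = 0.463), and -1.14 without that library.

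Bid (ENSMUSG00000004446, chr6:120891930-120916853, minus strand), which caspase-8 cleaves to pass on a death receptor signal, had 1.14 and 1.08 FPKM in BTg, 3.96 and 1.87 FPKM in CKO and 1.11 and 1.72 FPKM in WT. CKO was again above every other library, replicate 2 by little, and BTg lay inside or just under the WT range. The log2 difference of Bid was 0.93 (SE 0.45, limma adjusted p = 1) for CKO against WT, and 0.41 without CKO replicate 1. It was -1.22 (SE 0.45, unadjusted p = 0.0387, limma adjusted p = 0.528) for BTg against CKO, and -0.70 without that library. BTg against WT gave -0.29 (SE 0.45).

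Bcl2l11 (ENSMUSG00000027381, chr2:128126038-128162547, plus strand) had 3.76 and 4.74 FPKM in BTg, 2.01 and 3.94 FPKM in CKO and 2.97 and 4.40 FPKM in WT. The groups overlapped throughout, and CKO replicate 1 was lowest, as it was for Bcl2. Its log2 difference was 0.22 for BTg against WT, 0.57 for BTg against CKO and -0.35 for CKO against WT (SE 0.41 each). Without CKO replicate 1 the difference of BTg against CKO was 0.10 and that of CKO against WT 0.12. Bbc3 (ENSMUSG00000002083, chr7:16308393-16318205, plus strand), a p53 target, had 6.27 and 6.50 FPKM in BTg, 3.64 and 6.86 FPKM in CKO and 7.90 and 4.86 FPKM in WT. The 2 WT libraries were further apart than any pair of group means. Its log2 difference was 0.04 for BTg against WT, 0.34 for BTg against CKO and -0.30 for CKO against WT (SE 0.40 each). Bad (ENSMUSG00000024959, chr19:6941861-6951899, plus strand), which binds BCL2 and BCL-XL when growth factor signals fade, had 2.16 and 1.52 FPKM in BTg, 3.07 and 1.86 FPKM in CKO and 2.05 and 1.80 FPKM in WT. Only CKO replicate 1 stood out. Its log2 difference was 0.30 for CKO against WT, -0.08 for BTg against WT and -0.38 for BTg against CKO (SE 0.35 each). Without CKO replicate 1, Bad gave -0.05 and Bbc3 0.14 for CKO against WT, both turned in direction. That fit gave, for BTg against CKO, -0.03 for Bad and -0.10 for Bbc3, which turned as well.

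**Figure D2:**
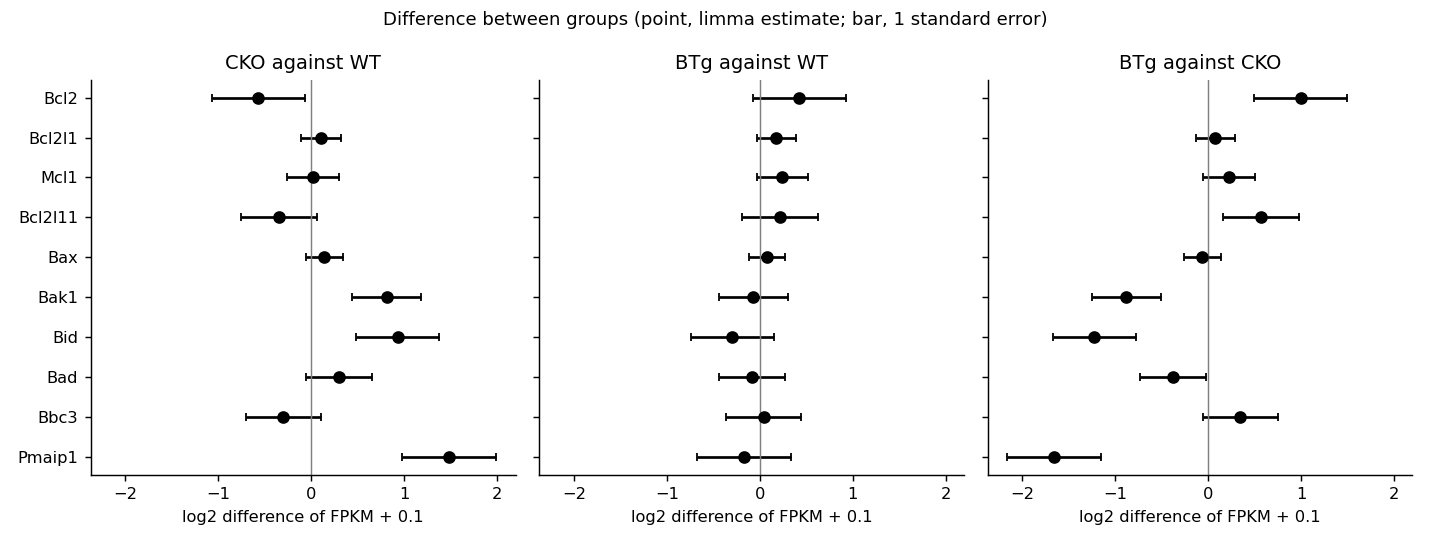
Log2 differences of FPKM + 0.1 (horizontal axes) for the 10 genes in CKO against WT, BTg against WT and BTg against CKO, with a point at the limma estimate and a bar of 1 SE. The largest are those of Pmaip1, 1.48 for CKO against WT and -1.66 for BTg against CKO, and every estimate for BTg against WT lies within 0.43 of no difference.

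Counted by overlap, 4 of the 10 genes were wholly higher in CKO than in WT (Bax, Bak1, Bid and Pmaip1, all of the death-promoting roles), against 13.6% of tested genes, and 0 were wholly lower, against 10.1%. For BTg against CKO, Bcl2 and Mcl1 were wholly higher, against 16.9% of genes, and Bak1, Bid and Pmaip1 wholly lower, against 23.1%. The median log2 difference of the 10 was 0.12 for CKO against WT, 0.06 for BTg against WT and 0.01 for BTg against CKO. Over all tested genes it was -0.03, 0.01 and 0.05 in the same comparisons. By role, the 2 effectors had a median of 0.48 and the 5 BH3-only genes of 0.30 for CKO against WT. The 3 prosurvival members had 0.02, and the 4 other prosurvival relatives tested, given below, had 0.74. Some markers of other cells and of division were higher in CKO than in WT as well. By group mean this held for 7 of 7 plasma cell, 11 of 11 neutrophil and 18 of 18 cell cycle genes. Their medians were 1.61, 4.21 and 1.15. Wholly higher were 7, 8 and 1 of them, in that order, where 13.6% of all tested genes were. Of B cell markers 3 of 7 were higher (median -0.04), and of NK cell markers 2 of 5 (-0.34). The 1 CD8 marker tested was lower. Cell cycle markers took 0.0919 and 0.110% of reads in BTg, 0.336 and 0.225% in CKO and 0.0874 and 0.261% in WT. Plasma cell, neutrophil and cell cycle markers were lower in BTg than in CKO in every gene, with medians of -2.19, -6.55 and -1.83. The part of these markers in the member differences was not tested.

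The CKO libraries departed from the WT mean in different ways. For Bcl2 the departure was -1.28 in replicate 1 and 0.13 in replicate 2, for Bcl2l11 -0.82 and 0.12, for Bbc3 -0.75 and 0.14, and for Mcl1 -0.16 and 0.20. Both replicates were above WT for Pmaip1 (2.0 and 0.97), Bid (1.45 and 0.41), Bak1 (1.19 and 0.43) and Bax (0.18 and 0.10). Without CKO replicate 1 the CKO to WT differences of Bcl2, Bcl2l1, Mcl1, Bax, Bcl2l11 and Bbc3 lay between 0.10 and 0.22. The median of all genes in that fit was 0.16. Bad lay below it at -0.05, and Bak1, Bid and Pmaip1 lay above it at 0.43, 0.41 and 0.97. These values rest on 1 CKO library, so their distance from 0.16 cannot be set against a spread between CKO libraries. The medians became 0.20 for the prosurvival genes, 0.26 for the effectors and 0.14 for the BH3-only genes. The same fit gave, for BTg against CKO, -0.04 for Bcl2l1 and -0.03 for Bax, beside -0.11 for all genes. Without WT replicate 1, Bak1, Bid and Pmaip1 gave 0.49, 0.63 and 1.87 for CKO against WT. Without WT replicate 2, which is high in erythroid markers, these genes gave 1.13, 1.23 and 1.10 for CKO against WT. For BTg against WT, Bcl2, Bcl2l1 and Mcl1 then gave 0.40, 0.23 and 0.26, Bcl2l11 gave 0.49, Bak1 0.25, Bbc3 -0.30 and Pmaip1 -0.56. In the fit without CKO replicate 1, plasma cell markers, with a median of 0.93, and neutrophil markers, with 1.65, were also still higher in CKO than in WT in 7 of 7 and 11 of 11 genes.

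**Figure D3:**
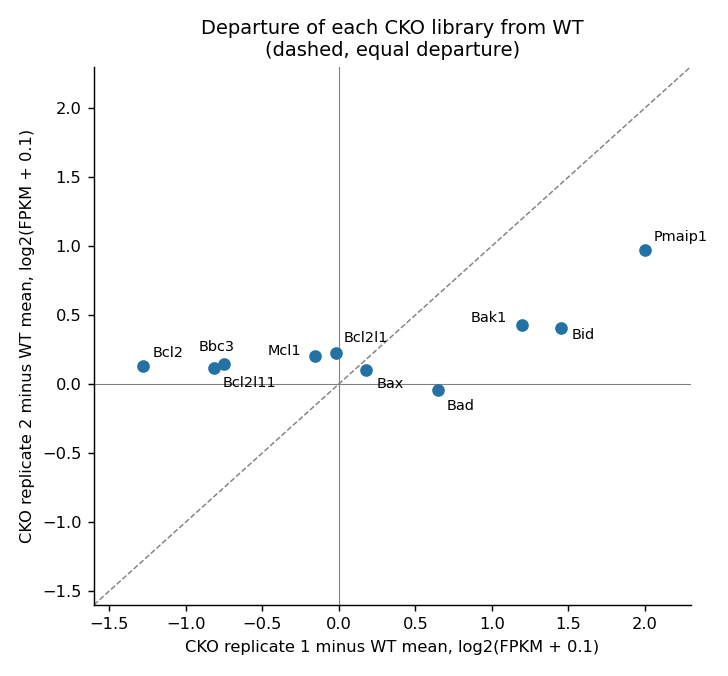
Departure of CKO replicate 1 (horizontal axis) and CKO replicate 2 (vertical axis) from the WT mean on log2(FPKM + 0.1), 1 point a gene, with the dashed line at equal departure. Pmaip1, Bid, Bak1 and Bax are above 0 in both libraries, while Bcl2, Bcl2l11, Bbc3 and Mcl1 are below 0 in replicate 1 and above 0 in replicate 2.

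The balance of roles was drawn from FPKM per exon length. Prosurvival genes made up 66.3 and 67.6% of the summed level of the 10 genes in BTg, 50.0 and 62.8% in CKO and 63.3 and 62.5% in WT. BTg was above every other library, CKO replicate 1 was far below, and CKO replicate 2 lay with WT. Effectors took 22.9 and 21.1% in BTg, 32.8 and 24.2% in CKO and 23.3 and 25.3% in WT. BH3-only genes took 10.8 and 11.3% in BTg, 17.2 and 13.0% in CKO and 13.3 and 12.2% in WT, so BTg had the lowest share of BH3-only genes. With Mcl1 set aside, the prosurvival share was 22.0 and 24.4% in BTg, 7.55 and 18.3% in CKO and 19.3 and 18.3% in WT. These shares leave out the other prosurvival relatives, Bcl2l2 and copies of the gene A1, which are taken up below. On the same scale Bcl2a1d, an A1 copy with an uncertain count, had 6.99 and 4.65 in BTg and 29.4 and 16.9 in CKO. In WT it had 14.6 and 8.88. Bcl2 itself had 25.6 and 29.2 in BTg, 7.72 and 22.2 in CKO and 20.5 and 19.7 in WT. Shares that include these relatives were not worked out, so the order of groups holds for the 10 genes only.

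**Figure D4:**
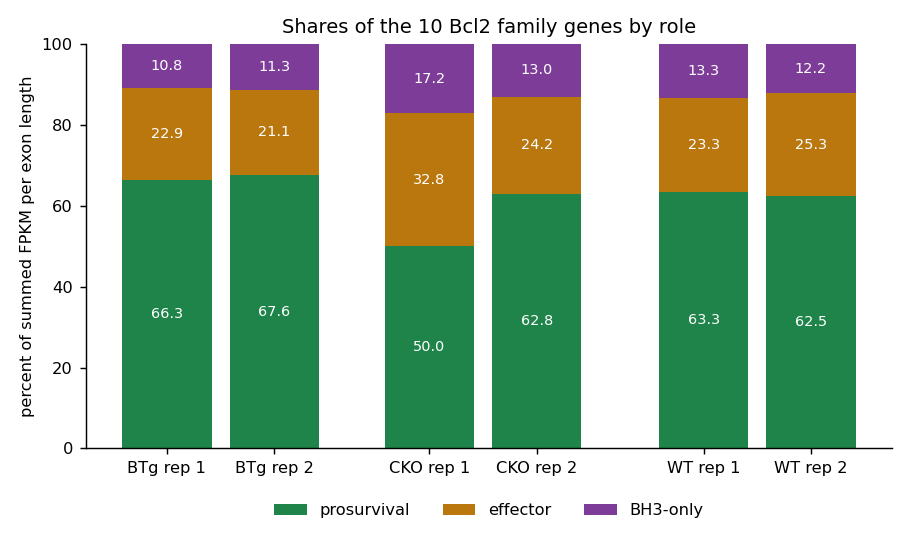
Percent of the summed FPKM per exon length of the 10 genes (vertical axis, from 0) held by prosurvival, effector and BH3-only genes in each library. The prosurvival share is 66.3 and 67.6% in BTg, and 50.0% in CKO replicate 1, the lowest. Bcl2l2 and the A1 copies are not part of these shares.

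Ratios of single partners within a library, on the same exon length scale, spread more widely. Bcl2 over Bak1 was 1.36 and 1.74 in BTg, 0.179 and 0.880 in CKO and 1.38 and 0.842 in WT. Bcl2 over Bax was 0.442 and 0.551 in BTg, 0.130 and 0.393 in CKO and 0.387 and 0.38 in WT, so BTg was highest in both libraries. Bcl2 over Bcl2l11, the pair balanced in resting T cells, was 2.89 and 2.61 in BTg, 1.63 and 2.39 in CKO and 2.92 and 1.90 in WT, with BTg inside the WT range. Mcl1 over Pmaip1, its NOXA partner, was 96.8 and 59.4 in BTg, 11.8 and 31.5 in CKO and 41.7 and 75.6 in WT. Both CKO libraries were below all others in that ratio. Reads of Pmaip1 per 1000 reads of the 10 T cell markers were 0.941 and 1.71 in BTg, 11.7 and 3.56 in CKO and 1.95 and 1.42 in WT. That scale raises any gene in CKO replicate 1, where the T cell markers were lowest. Mcl1 too was highest in CKO on it, at 172 and 140, against 114 and 127 in BTg and 102 and 134 in WT. On the same scale Bcl2 had 41.0 and 52.7 reads in BTg, 24.8 and 45.3 in CKO and 35.2 and 43.9 in WT, and the groups overlapped.

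Around the family, 82 genes of 9 lists were tested and 0 passed by limma, or by limma voom. An unadjusted p under 0.05 was reached by 2 of them for CKO against WT, 2 for BTg against WT and 11 for BTg against CKO, beside 4.69, 2.64 and 9.21% of all tested genes in the same comparisons. By group mean, 47.2% of all tested genes were higher in CKO than in WT, and 51.3% were higher in BTg than in WT. For BTg against CKO the share was 53.5%. Without CKO replicate 1 the median of all tested genes was 0.16 for CKO against WT, and list values from that fit are to be read against it. Other prosurvival relatives lay on the opposite side of WT from Bcl2 and Mcl1 in BTg. Of 4 tested, 4 were lower in BTg than in WT (median -0.59) and 4 were higher in CKO than in WT (median 0.74, and 0.40 without CKO replicate 1). Apart from Bcl2l2, those tested were near-identical copies of the gene A1, whose counts are uncertain, so these are not 4 separate results. Bcl2l2, which encodes BCL-W, had 2.0 and 2.07 FPKM in BTg, 5.97 and 6.02 FPKM in CKO and 2.73 and 4.47 FPKM in WT. BTg was below WT and WT below CKO without overlap, and the CKO libraries were nearly equal. Its log2 difference for BTg against CKO was -1.51 (SE 0.30, limma adjusted p = 0.273), and -1.52 without CKO replicate 1. Bcl2l2 shares exons with Gm20521 on the same strand, so its count is uncertain. Bcl2a1d, a mouse copy of A1, had 0.699 and 0.465 FPKM in BTg, 2.94 and 1.69 FPKM in CKO and 1.46 and 0.888 FPKM in WT, and is uncertain too because A1 copies are near-identical. Bcl2l15 had 0.10 and 0.174 FPKM in BTg, 0.542 and 0.717 FPKM in CKO and 0.181 and 0.221 FPKM in WT, and its BTg to CKO difference was -1.63 (SE 0.35, limma adjusted p = 0.307), and -1.80 without CKO replicate 1. It is uncertain as well, with 10 and 17 reads in BTg and 569 exon bases shared with Gm43064 on the same strand.

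Among 7 further BH3-only and BNIP genes, 3 were higher and 4 lower in CKO than in WT (median -0.04), and 5 were higher without CKO replicate 1 (median 0.14). Bmf, a sensor of cytoskeletal stress, had 0.0456 and 0.114 FPKM in BTg, 0.317 and 0.283 FPKM in CKO and 0.139 and 0.203 FPKM in WT, with no overlap between the groups. Its BTg values came from only 9 and 22 reads. Bik had 0.235 and 0.198 FPKM in BTg, 0.265 and 0.254 FPKM in CKO and 0.150 and 0.152 FPKM in WT, lowest in WT. Hrk was not analysed here. Downstream, 12 of 14 apoptosome and caspase genes were lower in BTg than in WT by group mean (median -0.15). Only 1 of the 14 was wholly lower, where 12% of all tested genes were. In CKO 10 of 14 were higher than in WT (median 0.33, and 0.14 without CKO replicate 1). Of these 14, 2 were wholly higher and 2 wholly lower, where 13.6 and 10.1% of all tested genes were so placed. By group mean, cell cycle markers were lower in BTg than in WT in 18 of 18 genes (median -0.63), neutrophil markers in 11 of 11 (-2.35), erythroid markers in 10 of 10 (-1.11) and plasma cell markers in 7 of 7 (-0.37). Wholly lower were only 2 cell cycle, 10 neutrophil, 0 erythroid and 2 plasma cell genes. WT replicate 1 lay near BTg in reads of cell cycle markers (0.0874%, against 0.0919 and 0.110%) and of erythroid markers (0.0374%, against 0.0371 and 0.0534%). WT replicate 2 was higher, at 0.261 and 0.233%. The part of these markers in the values of BTg against WT was not tested.

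Inhibitors of apoptosis gave 3 of 5 genes higher in BTg than in WT (median 0.04). Birc5 (survivin), which is also a mitotic gene, had 2.24 and 2.88 FPKM in BTg, 14.9 and 8.15 FPKM in CKO and 1.78 and 8.94 FPKM in WT. Its low WT library was also the lowest in cell cycle markers, which took 0.0874% of reads there and 0.261% in the other. Death receptor genes were higher in BTg than in WT in 9 of 11 (median 0.27), 6 of them without overlap, where 14.5% of all tested genes were wholly higher. Tnfrsf1a, the main TNF receptor with a death domain, had 15.6 and 16.5 FPKM in BTg against 9.42 and 10.9 FPKM in WT, a log2 difference of 0.66 (SE 0.25, limma adjusted p = 1). Tnfrsf10b, a TRAIL receptor, had 0.725 and 0.866 FPKM in BTg, 0.336 and 0.499 FPKM in CKO and 0.415 and 0.489 FPKM in WT. Tnfrsf1b, the TNF receptor without a death domain, had 2.18 and 2.56 FPKM in BTg, 3.76 and 4.03 FPKM in CKO and 1.97 and 2.64 FPKM in WT.

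Genes that control MCL1 and BIM at the protein level differed little between BTg and WT, with 7 of 9 higher in BTg and a median of 0.04. For CKO against WT 5 of 9 were higher, 3 of them wholly (median 0.12). For BTg against CKO 6 of 9 were lower (median -0.16). Without CKO replicate 1 these medians were 0.22 and -0.21, beside 0.16 and -0.11 for all tested genes. Dynll1, a dynein light chain, had 67.7 and 62.0 FPKM in BTg, 95.0 and 67.5 FPKM in CKO and 51.4 and 65.7 FPKM in WT. In the p53 arm 5 of 9 genes were higher in CKO than in WT (median 0.19). Without CKO replicate 1 it was 8 of 9 (median 0.25, beside 0.16 for all tested genes). Cdkn1a, the p53 target that encodes p21, had 0.396 and 0.385 FPKM in BTg, 2.73 and 1.01 FPKM in CKO and 0.275 and 0.830 FPKM in WT, with CKO wholly above both other groups as for Pmaip1. Trp53inp1 had 18.5 and 16.2 FPKM in BTg, 26.6 and 26.4 FPKM in CKO and 23.2 and 18 FPKM in WT.

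Of 20 genes of cytokine survival signalling, 15 were higher in BTg than in WT (median 0.14), and 8 were higher in CKO than in WT (median -0.11). Without CKO replicate 1 the latter count was 15 (median 0.17, beside 0.16 for all tested genes). Il7r, the receptor chain through which interleukin-7 sustains BCL2, was lower in BTg while Bcl2 was higher. It had 8.39 and 9.71 FPKM in BTg, 9.20 and 19.1 FPKM in CKO and 26.1 and 19.3 FPKM in WT. Both BTg libraries were well below WT, a log2 difference of -1.30 (SE 0.40, unadjusted p = 0.0220, limma adjusted p = 1). Il4ra, the interleukin-4 receptor chain, had 21.8 and 19.7 FPKM in BTg, 4.95 and 8.97 FPKM in CKO and 13.1 and 10.5 FPKM in WT, with no overlap between groups. Its log2 difference for BTg against CKO was 1.62 (SE 0.34, limma adjusted p = 0.296), and 1.2 without CKO replicate 1. Il2rb, shared by the interleukin-2 and interleukin-15 receptors, had 7.98 and 9.0 FPKM in BTg, 14.5 and 21.6 FPKM in CKO and 12.2 and 12.4 FPKM in WT, the reverse order.

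**Figure D5:**
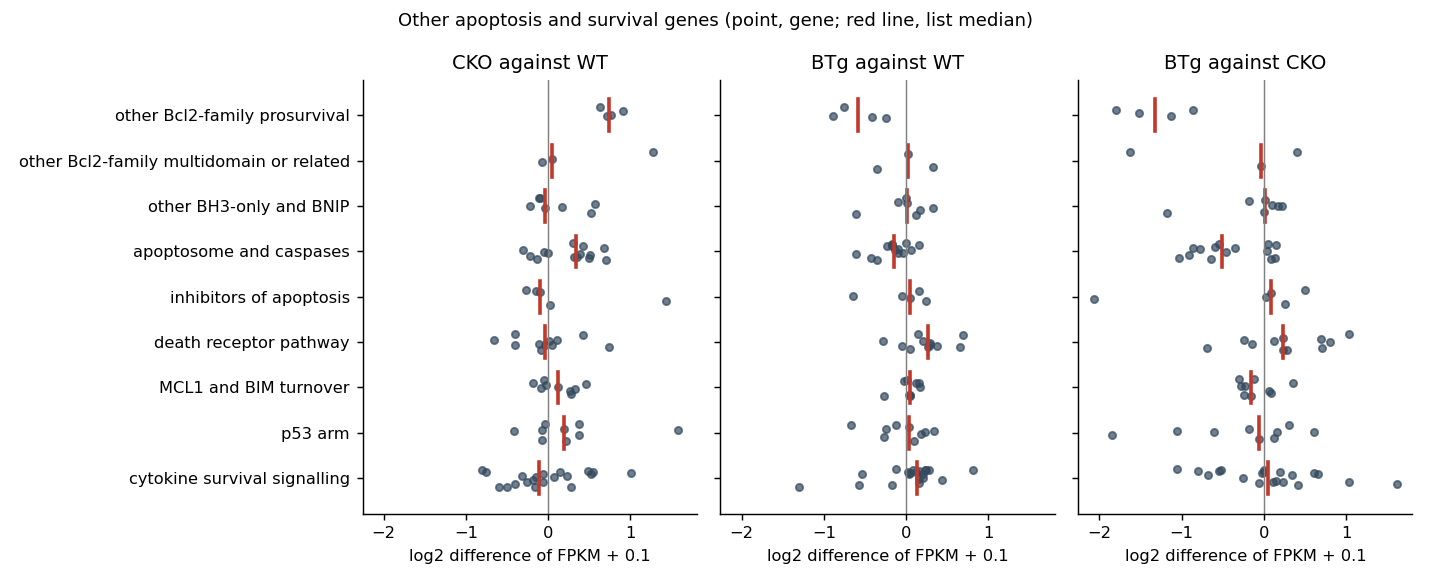
Log2 differences of FPKM + 0.1 (horizontal axes) for the 82 tested genes of 9 lists around the family, 1 point a gene and a red line at the list median, in CKO against WT, BTg against WT and BTg against CKO. The other prosurvival relatives, Bcl2l2 and near-identical copies of A1, have medians of 0.74, -0.59 and -1.32 in these comparisons, and 0 of the genes passed the test.

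Across the 6 libraries, which also differ in depth and in markers of other cells, the protein-coding genes closest in pattern to Bcl2 out of 8150 compared were Zfp707 (Pearson r = 0.999), Abcb9 (0.999) and Rassf2 (0.997). Those most opposed to Bcl2 were Cct8, Slc25a5 and Cox5b (each -0.997). For Bcl2l11 the closest were Traf4, Pofut2 and Akap10 (each 0.999), and the most opposed were Mphosph6 (-0.998), Mrpl21 (-0.995) and Cstb (-0.994). Without CKO replicate 1 the 6 closest stayed at 0.983 or above and the 6 most opposed at -0.978 or below. With 8150 genes ranked over 6 libraries such values describe these libraries only.

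Counts of 5 members may hold or lose reads in exons shared with a neighbour. The files say neither whether strand was used nor how reads over several genes were counted. Shared exon lengths were 558 bases for Bcl2 with D630008O14Rik, 614 for Bak1 with Ggnbp1, 628 for Bid with Bcl2l13 and 524 for Bad with Gpr137, all on opposite strands. Bax shared 192 bases with Gm45808 on its own strand, where use of strand would not tell these genes apart.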

How the data were processed

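Per the labels' protocols, TRIzol was used to extract RNA, and an NEBNext Ultra kit to build libraries. Trimmomatic 0.38, HISAT2 2.1.0, featureCounts 1.6.0 and the GRCm38 build are named in the submitters' processing notes; the sources used here do not give settings, annotation release or strand. The authors deposited 1 table of FPKM values for 28914 genes, all matched to GENCODE M21. If a gene's length is set to its transcripts' median genomic span, 100% of values were whole reads within 0.01, so reads were recovered and also set per merged exon length. That span lowers genes with long introns against other genes and leaves ratios between libraries as they are.

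Groups came from the sample titles. Both BTg titles end in 1 outside the brackets, so the number 2 of that group rests on the column name. Values were taken as log2(FPKM + 0.1), which understates the change of low genes, and genes with at least 0.1 FPKM in 2 libraries were kept. All 6 libraries entered a single fit with no block, by lmFit and trended eBayes of limma 3.58.1 in R 4.3.3, tested on simulated data. An exact two-sided permutation test of 2 libraries against 2 cannot go below 0.333, so none is given. Reads vary by counting error as well, which among the 10 members weighs most on Pmaip1. It weighs more on some genes around the family, such as Bmf (9 and 22 reads in BTg) and Bcl2l15 (10 and 17).

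The members and all lists were chosen with earlier results of these data known. Beyond the members and Prdm1, the genes with the 2 smallest p per pathway list and comparison, the top gene per marker list and 3 genes per end of each pattern ranking were eligible to be named. Some of the eligible genes are not reported here. Alternatives were other pseudocounts and filters, quantile normalization, median centring, no trend, a replicate block, the 4 libraries compared alone, merged exon length, limma voom on reads (minimum 10 in 2 libraries), each library left out, and centring on the 10 T cell markers, which was chosen after seeing the data. Matplotlib 3.10.9 drew the figures.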

Additional observations from a re-analysis of the deposited data

How the results depend on the processing

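In all 19 alternatives 0 of the 10 members passed the adjusted threshold in any comparison. The count of genes passing, 0 as reported in each comparison, became 66 (CKO against WT), 49 (BTg against WT) and 75 (BTg against CKO) with no filter. For BTg against WT and BTg against CKO it became 2 and 2 with the filter at 1 FPKM, 2 and 2 with log2(FPKM + 1) and that filter, 1 and 1 when centred on the T cell markers (chosen after seeing the data), and 4 and 7 with limma voom. With merged exon length it became 2 for BTg against WT. The causes were not tested.

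Member differences that turned sign were, with quantile normalization, Mcl1 for CKO against WT (-0.28) and Bax for BTg against CKO (0.030). When centred on the T cell markers they were Bcl2l11 (0.033) and Bbc3 (0.080) for CKO against WT, Bax (-0.10) and Bbc3 (-0.14) for BTg against WT, and Bcl2l1 (-0.48), Mcl1 (-0.34) and Bbc3 (-0.22) for BTg against CKO. That centring moves every gene by 1 amount per library. Leaving out each library in turn gave, for CKO against WT, Bcl2 -1.28 to 0.13, Bcl2l1 -0.016 to 0.22, Mcl1 -0.16 to 0.20, Bcl2l11 -0.82 to 0.12, Bad -0.047 to 0.65 and Bbc3 -0.75 to 0.14. For BTg against WT it gave Bcl2l11 -0.058 to 0.49, Bak1 -0.39 to 0.25, Bid -0.59 to 0.0042, Bad -0.32 to 0.16, Bbc3 -0.30 to 0.39 and Pmaip1 -0.56 to 0.21. For BTg against CKO it gave Bcl2l1 -0.043 to 0.20, Bax -0.13 to 0.0022 and Bbc3 -0.10 to 0.79. Where 1 library remains in a group it is assumed to vary like the other groups.

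With a replicate block 0 genes passed in each of the 3 comparisons. Deviations of same-numbered libraries correlated at 0.0815 (CKO and WT), 0.214 (BTg and WT) and 0.249 (BTg and CKO), so the numbers were not taken to pair the libraries; a shared batch or day was not tested. On the deposited length the prosurvival share averaged 84.1% in BTg, 79.0% in CKO and 82.0% in WT.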
